A study of Mus musculus with 11 samples.

Results

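Collagen genes encode the chains of the collagens, the main proteins of the extracellular matrix of bone, cartilage and periosteum. The members were the genes whose platform annotation symbol names a collagen chain, each represented by 1 probe set, the brightest on average among those annotated to a single gene. This gave 42 collagen genes of the 18193 genes on the array, 11 fibrillar, 9 network-forming, 9 FACIT (fibril-associated collagens with interrupted triple helices) and 13 of other types. Col21a1, Col6a6 and Col28a1 had no such probe set and were not analysed here.

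The data were 11 Affymetrix arrays of RNA from 6 mouse cell populations, freshly sorted. There were 2 arrays each of periosteal skeletal stem cells (P-SSCs), bone marrow skeletal stem cells (BM-SSCs), CD51+ BMSCs, Osx+ cells and CD45+ cells, and 1 array of Nes+ BMSCs. All but the CD45+ cells were sorted without CD45, CD31 and Ter119, and P-SSCs, BM-SSCs and Nes+ BMSCs were also gated as CD105+CD140a+. For CD51+ BMSCs the study's text gives the same CD105+CD140a+ gate, which their sample titles do not name. P-SSCs were Mx1+Ocn- cells of periosteum from mice with Mx1-Cre, a Rosa-Tomato allele and Osteocalcin-GFP, and BM-SSCs were Mx1+Nes+ marrow cells from mice with Nestin-GFP in place of the last allele. Both reporter lines were lethally irradiated, received wild-type marrow and were then given pIpC, an interferon inducer that switches on Mx1-Cre. The Mx1 promoter also acts in hematopoietic cells, which in these mice came from the unlabelled donor marrow. Nes+ BMSCs were Nestin-GFP marrow cells with or without Mx1. CD51+ BMSCs were marrow cells sorted on CD51 (the integrin alpha V chain), Osx+ cells carried GFP under the promoter of Osterix (Sp7), a transcription factor of the osteoblast lineage, and CD45+ cells were the hematopoietic cells of marrow. Ages at sorting were not given, cells of several male and female mice were pooled, and the methods call the arrays of a population biological repeats without saying whether they came from separate mice or sorts. The p-values measure the spread between these arrays. In sorted bulk RNA, fewer cells of a type and less RNA per cell cannot be told apart.

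Collagens are built from 3 alpha chains wound into a triple helix. Types I, III and V form the fibrils of bone, periosteum and most connective tissue, whereas types II, IX and XI build the fibrils of cartilage and type X marks hypertrophic cartilage in the growth plate. Type IV and the related network collagens form the sheets of basement membranes, type VI forms beaded microfibrils around cells, and the FACIT chains sit on the surface of fibrils.

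All values are log2 signals, and a gene passed at a Benjamini-Hochberg adjusted p under 0.05 over all 45037 probe sets in limma, whose standard errors (SE) are given. In both SSC populations array 2 differed from its partner. The median signal of ribosomal protein genes, abundant in all cells, was 6.51 on P-SSC array 2 and 11.36 to 12.84 on the other arrays. Over the 42 collagens, the median gap between the arrays of a population was 1.96 in P-SSCs and 1.69 in the BM-SSCs, and between 0.259 and 0.299 in CD51+ BMSCs, Osx+ cells and CD45+ cells. Results that rest on these arrays are therefore also given with both left out. P-SSCs and BM-SSCs then have 1 array each, and their spread is taken to equal that of the other populations. Of the sorting markers, Sp7 was highest in Osx+ cells at 8.93 and 8.58, and Ptprc, the gene of CD45, reached 12.06 and 12.05 in CD45+ cells, but it also read 10.23 and 10.17 in CD51+ BMSCs, which had been depleted of CD45+ cells. Itgav, the gene of CD51, did not mark the CD51+ BMSCs (10.10 and 10.27, against 10.73 and 10.79 in Osx+ cells), and Nes stayed between 5.26 and 7.42 on all arrays. Pdgfra, the gene of CD140a, read 11.29 and 4.41 in P-SSCs, 10.95 and 6.90 in the BM-SSCs, 11.44 and 11.79 in CD51+ BMSCs and 8.53 and 8.65 in Osx+ cells, against 3.62 and 3.42 in CD45+ cells. Array 2 of the P-SSCs was thus low for a marker used to sort them. It was not low for Eng, the gene of CD105, which read 8.32 and 7.59 in P-SSCs and 7.63 and 7.57 in the BM-SSCs. Eng read 7.09 and 7.39 in CD51+ BMSCs, 6.97 and 7.08 in Osx+ cells and 6.27 and 5.97 in CD45+ cells.

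**Figure D1:**
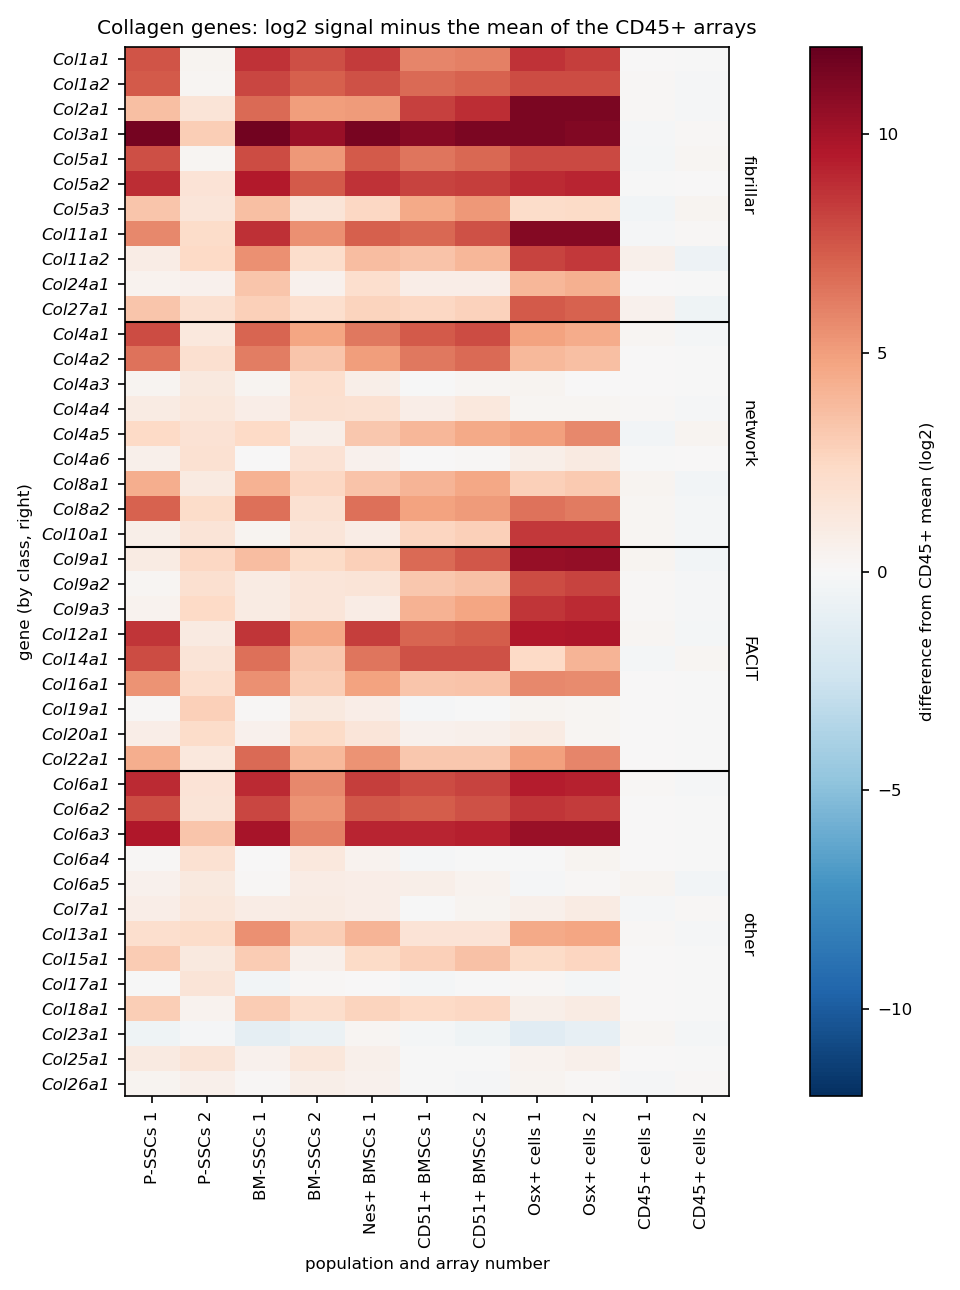
Log2 signal of the 42 collagen genes (rows, by class) on the 11 arrays (columns, by population), each minus the mean of the CD45+ arrays. P-SSC array 2 is pale for Col1a1, Col1a2 and Col5a1, while both Osx+ arrays are darkest for Col2a1, Col3a1 and Col11a1.

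The promoters of members that stood at opposite ends of the patterns described next are shown, 4 of cartilage chains with their highest signal in Osx+ cells (Col9a1, with both of its annotated starts, Col9a2, Col10a1 and Col11a1) and 2 of chains that all stromal populations shared (Col1a2 and Col3a1). Each is the 250 bases before an annotated start in RefSeq (GRCm38.p6), read 5′ to 3′ on the gene's strand. For Col11a1 and both Col9a1 windows this start lies inside the gene, whose first base is 114030479 and 24177589 in turn. These windows therefore hold bases of the gene itself. Capitals mark the letters of the TATA box (TATAAA), the CCAAT box (CCAAT), the GC box (GGGCGG) and a SOX family core (ACAAAG) on either strand, and no marked matches overlapped.
Col9a1, chr1:24177360-24177609, plus strand: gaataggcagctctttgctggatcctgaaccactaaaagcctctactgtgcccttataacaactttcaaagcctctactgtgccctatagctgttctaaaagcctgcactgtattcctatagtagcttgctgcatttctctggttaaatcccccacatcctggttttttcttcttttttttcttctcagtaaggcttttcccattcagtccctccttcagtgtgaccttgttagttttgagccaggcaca
Col9a1, chr1:24194953-24195202, plus strand: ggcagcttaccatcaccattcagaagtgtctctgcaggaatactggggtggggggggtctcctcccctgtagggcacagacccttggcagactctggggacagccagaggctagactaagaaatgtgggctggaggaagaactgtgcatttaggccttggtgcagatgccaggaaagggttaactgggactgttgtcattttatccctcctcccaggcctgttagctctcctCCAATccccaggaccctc
Col9a2, chr4:121039316-121039565, plus strand: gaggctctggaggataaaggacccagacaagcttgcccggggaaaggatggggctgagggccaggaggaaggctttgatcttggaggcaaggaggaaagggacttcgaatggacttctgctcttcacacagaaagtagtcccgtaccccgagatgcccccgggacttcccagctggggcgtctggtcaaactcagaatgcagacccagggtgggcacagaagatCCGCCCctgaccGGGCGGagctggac
Col10a1, chr10:34389731-34389980, plus strand: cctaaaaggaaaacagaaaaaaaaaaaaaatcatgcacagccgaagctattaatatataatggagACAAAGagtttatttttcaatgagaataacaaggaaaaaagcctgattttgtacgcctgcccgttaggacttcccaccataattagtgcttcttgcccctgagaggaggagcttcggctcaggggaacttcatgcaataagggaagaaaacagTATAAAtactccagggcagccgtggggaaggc
Col11a1, chr3:114030290-114030539, plus strand: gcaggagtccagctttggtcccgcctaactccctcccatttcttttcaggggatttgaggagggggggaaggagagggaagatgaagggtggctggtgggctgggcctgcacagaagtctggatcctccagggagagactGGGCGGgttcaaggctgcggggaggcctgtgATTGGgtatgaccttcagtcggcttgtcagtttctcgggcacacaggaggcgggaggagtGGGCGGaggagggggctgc
Col1a2, chr6:4505368-4505617, plus strand: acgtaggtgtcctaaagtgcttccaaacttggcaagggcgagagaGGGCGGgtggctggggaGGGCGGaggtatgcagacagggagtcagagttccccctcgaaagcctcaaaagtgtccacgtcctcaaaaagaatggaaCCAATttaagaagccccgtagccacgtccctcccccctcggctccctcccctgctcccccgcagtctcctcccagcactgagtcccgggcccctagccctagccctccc
Col3a1, chr1:45311288-45311537, plus strand: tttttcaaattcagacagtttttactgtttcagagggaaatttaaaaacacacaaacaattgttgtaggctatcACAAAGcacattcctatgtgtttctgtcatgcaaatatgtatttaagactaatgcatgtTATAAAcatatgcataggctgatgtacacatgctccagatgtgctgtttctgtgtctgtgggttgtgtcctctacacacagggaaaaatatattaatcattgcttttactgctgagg
Of the collagens, 33 had such a window, some more than one, and 9 had none. TATAAA was present in 13.9% of the 36 collagen windows, against 12.4% of the 32851 windows of all genes. The share with CCAAT was 36.1% of collagen windows and 33.8% of all windows, that with GGGCGG 58.3% and 32.7%, and that with ACAAAG 8.33% and 16.5%. Col10a1 and Col3a1, which differed in where they were expressed, both carried TATAAA and ACAAAG, whereas the first Col9a1 window carried none of these motifs. These are matches of letters only.

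The fibrillar chains of types I and III and the type V chains Col5a1 and Col5a2 were high in every stromal population, apart from array 2 of the P-SSCs, and low in CD45+ cells. Col1a1 read 12.21 and 4.93 in P-SSCs, 13.34 and 12.39 in the BM-SSCs, 13.01 in Nes+ BMSCs, 10.53 and 10.70 in CD51+ BMSCs, 13.33 and 12.90 in Osx+ cells, against 4.66 and 4.61 in CD45+ cells. Col1a2 read 14.09 and 6.93 in P-SSCs, 14.70 and 13.89 in the BM-SSCs, 14.32 in Nes+ BMSCs, 13.52 and 13.78 in CD51+ BMSCs, 14.49 and 14.54 in Osx+ cells, against 6.84 and 6.54 in CD45+ cells. For type III, Col3a1 read 14.08 and 5.57 in P-SSCs, 14.15 and 12.93 in the BM-SSCs, 13.96 in Nes+ BMSCs, 13.54 and 13.89 in CD51+ BMSCs, 13.86 and 13.69 in Osx+ cells, against 2.51 and 2.71 in CD45+ cells. The stromal arrays other than P-SSC array 2 lay between 10.53 and 14.70 for these chains, and P-SSC array 2 lay close to the CD45+ arrays for both type I chains. Type V chains are built into type I fibrils and help to set their diameter. Col5a1 read 11.59 and 4.03 in P-SSCs, 11.69 and 8.99 in the BM-SSCs, 11.18 in Nes+ BMSCs, 10.27 and 10.72 in CD51+ BMSCs, 11.75 and 11.75 in Osx+ cells, against 3.62 and 4.03 in CD45+ cells. Col5a2 read 12.87 and 5.70 in P-SSCs, 13.49 and 11.33 in the BM-SSCs, 12.68 in Nes+ BMSCs, 12.09 and 12.35 in CD51+ BMSCs, 12.94 and 13.16 in Osx+ cells, against 3.97 and 4.07 in CD45+ cells. Both chains were lowest among stromal arrays on P-SSC array 2, followed by BM-SSC array 2.

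Against CD45+ cells, 21 of 42 collagens rose in Osx+ cells and 0 fell, where 3.65% of all probe sets rose and 5.62% fell. The number that rose was 1 in P-SSCs (2.48% of all probe sets), 11 in the BM-SSCs (2.18%) and 13 in CD51+ BMSCs (2.95%), and 0 fell in any of these, where 7.29%, 6.26% and 2.9% of all probe sets fell. By class, 9 of 11 fibrillar, 6 of 9 FACIT, 2 of 9 network-forming and 4 of 13 other collagens rose in Osx+ cells, and 5, 3, 4 and 1 of the same classes in CD51+ BMSCs. These comparisons share the CD45+ arrays. The collagens with the largest differences in Osx+ cells were Col2a1 at 11.30 (SE 0.78, adjusted p = 0.000268), Col3a1, Col11a1 at 11.02 (SE 1.30, adjusted p = 0.00204), Col9a1 at 10.50 (SE 0.64, adjusted p = 0.000188) and Col6a3. In CD51+ BMSCs Col2a1 rose by 8.52 (SE 0.78, adjusted p = 0.00281), Col11a1 by 7.27 and Col9a1 by 7.12, and in BM-SSCs Col5a2 rose by 8.39 and Col1a2 by 7.60. The median difference over the collagens was 5.0 in Osx+ cells, 2.11 in P-SSCs, 2.78 in the BM-SSCs and 3.55 in the CD51+ BMSCs, beside medians over all probe sets of 0.0154, 0.384, 0.177 and -0.085 for the same populations. Col1a1 was higher by 8.48 (SE 1.90, adjusted p = 0.0317) in Osx+ cells and by 8.23 (SE 1.90, adjusted p = 0.04) in BM-SSCs. In P-SSCs its difference was 3.94 (SE 1.90, adjusted p = 0.177) and in CD51+ BMSCs 5.97 (SE 1.90, adjusted p = 0.138), neither of which passed. Col3a1 rose in Osx+ cells by 11.16 (SE 2.22, adjusted p = 0.0196), in BM-SSCs by 10.92 (SE 2.22, adjusted p = 0.0259) and in CD51+ BMSCs by 11.11 (SE 2.22, adjusted p = 0.0296), with 7.21 in P-SSCs (adjusted p = 0.0799). Col27a1, a fibrillar chain of cartilage, was the single collagen that rose in P-SSCs, by 2.64 (SE 0.58, adjusted p = 0.0317). Its other probe set differed by 1.54 and did not pass. The call was lost with each array centred on its median, with only the compared populations in the fit, and with a mean over probe sets. At an unadjusted p under the same threshold, 23 collagens differed in P-SSCs, and so did 33.5% of all probe sets.

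With array 2 of P-SSCs and BM-SSCs left out, 30 collagens rose in P-SSCs and 31 in the BM-SSCs, beside 22.6% and 15.3% of all probe sets, while 33 rose in Osx+ cells and 31 in CD51+ BMSCs (18% and 14.7%). The shares of all probe sets that fell were 23.4% in Osx+ cells, 26% in P-SSCs, 22% in the BM-SSCs and 21.7% in the CD51+ BMSCs. Col23a1, a transmembrane collagen, was then the 1 collagen that was lower in Osx+ cells and in BM-SSCs, with differences of -1.19 (adjusted p = 0.00268) and -1.06 (adjusted p = 0.0142). Col1a1 in P-SSCs was higher by 7.58 (adjusted p = 5.12e-07) and Col3a1 by 11.47 (adjusted p = 2.55e-07). Single arrays also moved the counts, and the share of all probe sets that passed in either direction moved with them. With all arrays that share was 9.27% in Osx+ cells, 9.77% in P-SSCs, 8.44% in the BM-SSCs and 5.85% in the CD51+ BMSCs. Leaving out either CD45+ array gave 9 in Osx+ cells, 0 in P-SSCs and 0 in the BM-SSCs, with 2 and 0 in CD51+ BMSCs without CD45+ array 1 and array 2, where at most 2.87% of all probe sets passed. Either Osx+ array left out gave 9 in Osx+ cells, 0 in P-SSCs, 3 in the BM-SSCs and 6 in the CD51+ BMSCs, where 2.79% to 4.71% of all probe sets passed. Either CD51+ array left out gave 0 in P-SSCs and 3 in the BM-SSCs, with 2 and 0 in CD51+ BMSCs without CD51+ array 1 and array 2, where 0.171% to 3.85% of all probe sets passed. Leaving out either P-SSC array gave 25 in BM-SSCs (19.3% of all probe sets) and 25 in CD51+ BMSCs (11.2%), and 14 in P-SSCs without array 1 (56.9%) and 21 without array 2 (11.2%). Without either BM-SSC array 9 passed in P-SSCs (18.2%), and without BM-SSC array 1 there were 6 in BM-SSCs (19.8%). With all arrays kept, 31 of the 42 genes read higher on each of the 9 arrays of the other populations than on both CD45+ arrays. The matching share of all probe sets was not counted, so this number has no background beside it.

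**Figure D2:**
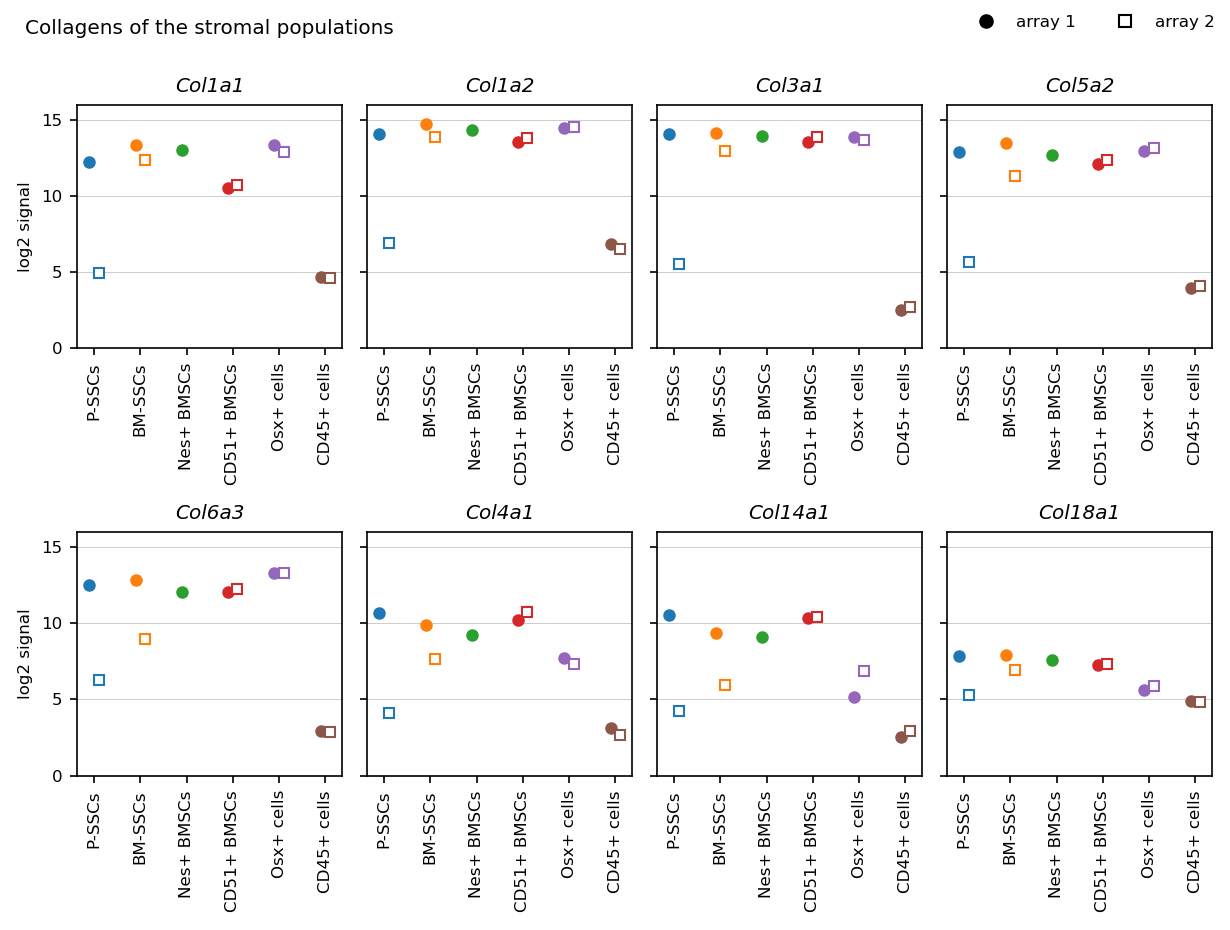
Log2 signal (vertical axes) of 8 collagens in each population (horizontal axes), with a circle for array 1 and a square for array 2. Col1a1 and Col3a1 lie at 10.53 or above on every stromal array except P-SSC array 2, and Col4a1 and Col14a1 are higher in CD51+ BMSCs than in Osx+ cells.

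The type VI chains Col6a1, Col6a2 and Col6a3 and type XII, a FACIT of dense connective tissue, followed the fibrillar pattern. Their means were highest in Osx+ cells, as were those of Col1a1, Col1a2, Col5a1 and Col5a2. Col6a1 read 12.20 and 4.88 in P-SSCs, 12.22 and 9.03 in the BM-SSCs, 11.52 in Nes+ BMSCs, 11.07 and 11.38 in CD51+ BMSCs, 12.67 and 12.47 in Osx+ cells, against 3.43 and 3.06 in CD45+ cells. Col6a2 read 12.46 and 6.12 in P-SSCs, 12.66 and 10.02 in the BM-SSCs, 12.03 in Nes+ BMSCs, 11.89 and 12.22 in CD51+ BMSCs, 13.18 and 13.00 in Osx+ cells, against 4.69 and 4.55 in CD45+ cells. Col6a3 read 12.53 and 6.25 in P-SSCs, 12.82 and 8.95 in the BM-SSCs, 12.05 in Nes+ BMSCs, 12.03 and 12.22 in CD51+ BMSCs, 13.28 and 13.27 in Osx+ cells, against 2.90 and 2.89 in CD45+ cells. In each of these genes both Osx+ arrays lay above all others. Col6a3 rose against CD45+ cells by 10.38 (SE 1.91, adjusted p = 0.0142) in Osx+ cells, 7.99 (SE 1.91, adjusted p = 0.0442) in the BM-SSCs and 9.23 (SE 1.91, adjusted p = 0.0333) in the CD51+ BMSCs, and Col6a1 and Col6a2 rose in Osx+ cells by 9.32 and 8.47. Col12a1 read 10.89 and 3.44 in P-SSCs, 10.94 and 6.95 in the BM-SSCs, 10.67 in Nes+ BMSCs, 9.35 and 9.61 in CD51+ BMSCs, 11.96 and 12.07 in Osx+ cells, against 2.54 and 2.15 in CD45+ cells. It rose in Osx+ cells by 9.68 (SE 2.18, adjusted p = 0.0325). The type VI chains Col6a4 and Col6a5 were not highest in Osx+ cells. Col6a4 read 3.89 and 5.63 in P-SSCs, 3.83 and 5.0 in the BM-SSCs, 4.23 in Nes+ BMSCs, 3.66 and 3.76 in CD51+ BMSCs, 3.72 and 4.05 in Osx+ cells, against 3.84 and 3.69 in CD45+ cells. Col6a5 read 3.34 and 4.03 in P-SSCs, 3.02 and 3.70 in the BM-SSCs, 3.60 in Nes+ BMSCs, 3.51 and 3.29 in CD51+ BMSCs, 2.65 and 2.94 in Osx+ cells, against 3.14 and 2.53 in CD45+ cells. Neither passed in any comparison with all arrays. Of the 3 other probe sets of Col12a1, 1 made the same call and 2 were dim. Col16a1 (5.73), Col22a1 (5.37) and the transmembrane Col13a1 (4.66) also rose in Osx+ cells, and Col22a1 and Col13a1 rose in BM-SSCs, by 5.34 and 4.22.

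The cartilage collagens stood far higher in Osx+ cells than elsewhere, with CD51+ BMSCs next. Col2a1 read 7.06 and 4.99 in P-SSCs, 10.28 and 8.46 in the BM-SSCs, 8.58 in Nes+ BMSCs, 11.69 and 12.32 in CD51+ BMSCs, 14.81 and 14.75 in Osx+ cells, against 3.66 and 3.31 in CD45+ cells. It encodes the main chain of cartilage fibrils, and none of the population ranges overlapped except those of BM-SSCs and Nes+ BMSCs. Col9a1 read 4.82 and 6.33 in P-SSCs, 7.53 and 6.16 in the BM-SSCs, 6.72 in Nes+ BMSCs, 10.62 and 11.35 in CD51+ BMSCs, 14.30 and 14.43 in Osx+ cells, against 4.16 and 3.57 in CD45+ cells. Col9a2 read 3.75 and 5.48 in P-SSCs, 4.5 and 5.04 in the BM-SSCs, 5.06 in Nes+ BMSCs, 6.79 and 7.10 in CD51+ BMSCs, 11.37 and 11.70 in Osx+ cells, against 3.70 and 3.40 in CD45+ cells. Col9a3 read 5.0 and 7.01 in P-SSCs, 5.60 and 6.06 in the BM-SSCs, 5.47 in Nes+ BMSCs, 8.73 and 9.30 in CD51+ BMSCs, 13.16 and 13.55 in Osx+ cells, against 4.75 and 4.43 in CD45+ cells. The type IX chains, a FACIT that decorates type II fibrils, were all high in Osx+ cells and intermediate in CD51+ BMSCs, and P-SSC array 2 read above P-SSC array 1 for all of them. Col10a1 read 4.55 and 5.31 in P-SSCs, 4.10 and 5.30 in the BM-SSCs, 4.69 in Nes+ BMSCs, 6.35 and 6.70 in CD51+ BMSCs, 12.24 and 12.31 in Osx+ cells, against 4.07 and 3.54 in CD45+ cells. Type X was bright in Osx+ cells alone, and every other array read 6.70 or less.

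The type XI chains, which form the core of cartilage fibrils, were also highest in Osx+ cells. Col11a1 read 8.54 and 4.96 in P-SSCs, 11.59 and 8.25 in the BM-SSCs, 9.96 in Nes+ BMSCs, 9.71 and 10.40 in CD51+ BMSCs, 13.83 and 13.77 in Osx+ cells, against 2.60 and 2.96 in CD45+ cells. Col11a2 read 5.35 and 6.84 in P-SSCs, 9.96 and 6.56 in the BM-SSCs, 8.15 in Nes+ BMSCs, 7.87 and 8.44 in CD51+ BMSCs, 12.58 and 12.97 in Osx+ cells, against 5.03 and 3.87 in CD45+ cells. BM-SSC array 1 was the highest array outside Osx+ cells for both chains, whereas BM-SSC array 2 lay below the CD51+ arrays. Col27a1 read 8.77 and 7.34 in P-SSCs, 8.32 and 7.43 in the BM-SSCs, 8.05 in Nes+ BMSCs, 7.93 and 8.23 in CD51+ BMSCs, 12.75 and 12.54 in Osx+ cells, against 5.91 and 4.92 in CD45+ cells. Against CD45+ cells Col11a1 rose in BM-SSCs by 7.14 (SE 1.30, adjusted p = 0.0176), with 3.97 (SE 1.30, adjusted p = 0.0914) in P-SSCs. Col11a2 differed by 1.65 (SE 1.05, adjusted p = 0.254) in P-SSCs and 3.81 (SE 1.05, adjusted p = 0.0668) in the BM-SSCs and did not pass. Apart from the Osx+ arrays, the Col27a1 values of the stromal arrays lay between 7.34 and 8.77. In 16 of the 42 genes both Osx+ arrays were above all other arrays, and 20 had their highest mean in Osx+ cells, 9 of them fibrillar. Neither number was counted over all probe sets, so both lack a background.

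**Figure D3:**
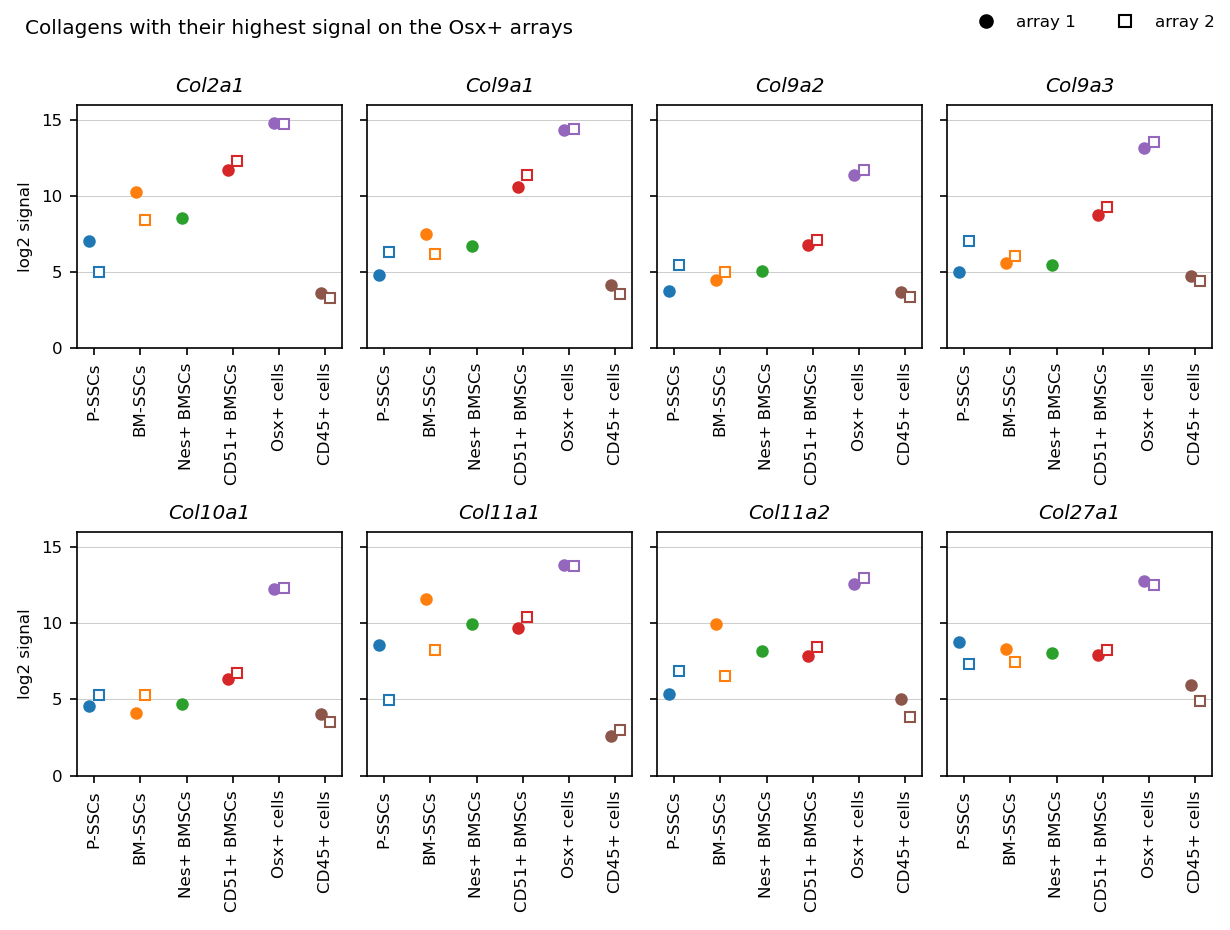
Log2 signal (vertical axes) of 8 cartilage collagens in each population (horizontal axes), with a circle for array 1 and a square for array 2. Both Osx+ arrays are above every other array in all 8 genes, and Col10a1 is above 12 in Osx+ cells and at most 6.70 elsewhere.

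Set against Osx+ cells, 7 collagens were lower in P-SSCs, 6 in the BM-SSCs and 5 in the CD51+ BMSCs and 0 were higher, where 0.762%, 0.584% and 0.711% of all probe sets were lower and 0.0466%, 0.0311% and 1.51% higher. The 5 in CD51+ BMSCs were 3 FACIT, 1 network-forming and 1 fibrillar chain. These comparisons share the Osx+ arrays. For Col10a1 the differences were -7.34 (SE 0.49, adjusted p = 0.00161) in P-SSCs, -7.57 (SE 0.49, adjusted p = 0.00136) in the BM-SSCs and -5.75 (SE 0.49, adjusted p = 0.00253) in the CD51+ BMSCs. Col9a1 differed by -8.79 (SE 0.64, adjusted p = 0.00209) in P-SSCs, -7.52 (SE 0.64, adjusted p = 0.00399) in the BM-SSCs and -3.38 (SE 0.64, adjusted p = 0.0419) in the CD51+ BMSCs. Col9a2 and Col9a3 were lower by the same test in all 3 populations, Col9a2 with -6.92, -6.76 and -4.58 and Col9a3 with -7.35, -7.53 and -4.34 in P-SSCs, BM-SSCs and CD51+ BMSCs. Col27a1 differed by -4.59, -4.77 and -4.56 in the same order. Col2a1 was lower in P-SSCs and in the BM-SSCs, with a difference of -5.41 (SE 0.78, adjusted p = 0.0324) in BM-SSCs, while its difference in CD51+ BMSCs was -2.78 (SE 0.78, adjusted p = 0.177), which did not pass. Col11a2 was lower in P-SSCs, with -6.68 (SE 1.05, adjusted p = 0.0389). For Col11a1 the difference of P-SSCs was -7.05 (SE 1.30, adjusted p = 0.0703), which did not pass. At an unadjusted p under the same threshold 13, 11 and 11 collagens differed in P-SSCs, BM-SSCs and CD51+ BMSCs. The shares of all probe sets were 18.1%, 9.24% and 8.97%.

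The calls rest on few arrays. Leaving out either Osx+ array left 1 collagen lower in each of the P-SSC, BM-SSC and CD51+ comparisons, where at most 0.364% of all probe sets passed. Leaving out CD51+ array 2 left 0 in the CD51+ comparison (0%), and leaving out CD51+ array 1 left 1 (0.184%). Col10a1 passed in P-SSCs and BM-SSCs with any 1 array left out. Between P-SSCs and Osx+ cells 26 collagens passed without P-SSC array 1, beside 48.6% of all probe sets, and 11 without either BM-SSC array (1.81%). Between BM-SSCs and Osx+ cells 10 passed without BM-SSC array 1 (4.86%), and between CD51+ BMSCs and Osx+ cells 8 passed without either BM-SSC array (2.96%).

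Cartilage markers moved with these genes. All 10 cartilage markers rose in Osx+ cells against CD45+ cells, where 3.65% of all probe sets rose. In each of P-SSCs, BM-SSCs and CD51+ BMSCs, 6 of 10 were lower than in Osx+ cells. The shares of all probe sets lower than in Osx+ cells were 0.762%, 0.584% and 0.711%. Without array 2 of both SSC populations the median differences of the list from Osx+ cells were -5.82, -6.04 and -3.77 in the same order. Summed over the list, the log2 signal per array was 51.2 to 65.3 in P-SSCs, 56.6 to 67.3 in BM-SSCs, 65.8 in Nes+ BMSCs, 84.4 to 86.5 in CD51+ BMSCs, 124 to 125 in Osx+ cells and 33.3 to 34.1 in CD45+ cells. The proteoglycan Acan read 9.38 and 9.33 in CD51+ BMSCs and 13.24 and 13.21 in Osx+ cells, and the matrilin Matn1 read 2.74 and 2.94 in CD51+ BMSCs and 10.54 and 11.14 in Osx+ cells. The part of cartilage cells in the collagen differences was not tested. The 7 osteoblast and osteocyte markers summed to 32.4 to 50.1 in P-SSCs, 53.5 to 62.3 in BM-SSCs, 57.6 in Nes+ BMSCs, 45.8 to 46.0 in CD51+ BMSCs, 61.9 to 63.0 in Osx+ cells and 24.8 to 25.5 in CD45+ cells. With all arrays 1, 1 and 2 of them were lower in P-SSCs, BM-SSCs and CD51+ BMSCs than in Osx+ cells. The shares of all probe sets were again 0.762%, 0.584% and 0.711%. Without array 2 of both SSC populations the median differences were -2.30, 0.0066 and -2.23 for these markers. Their part was not tested either.

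**Figure D4:**
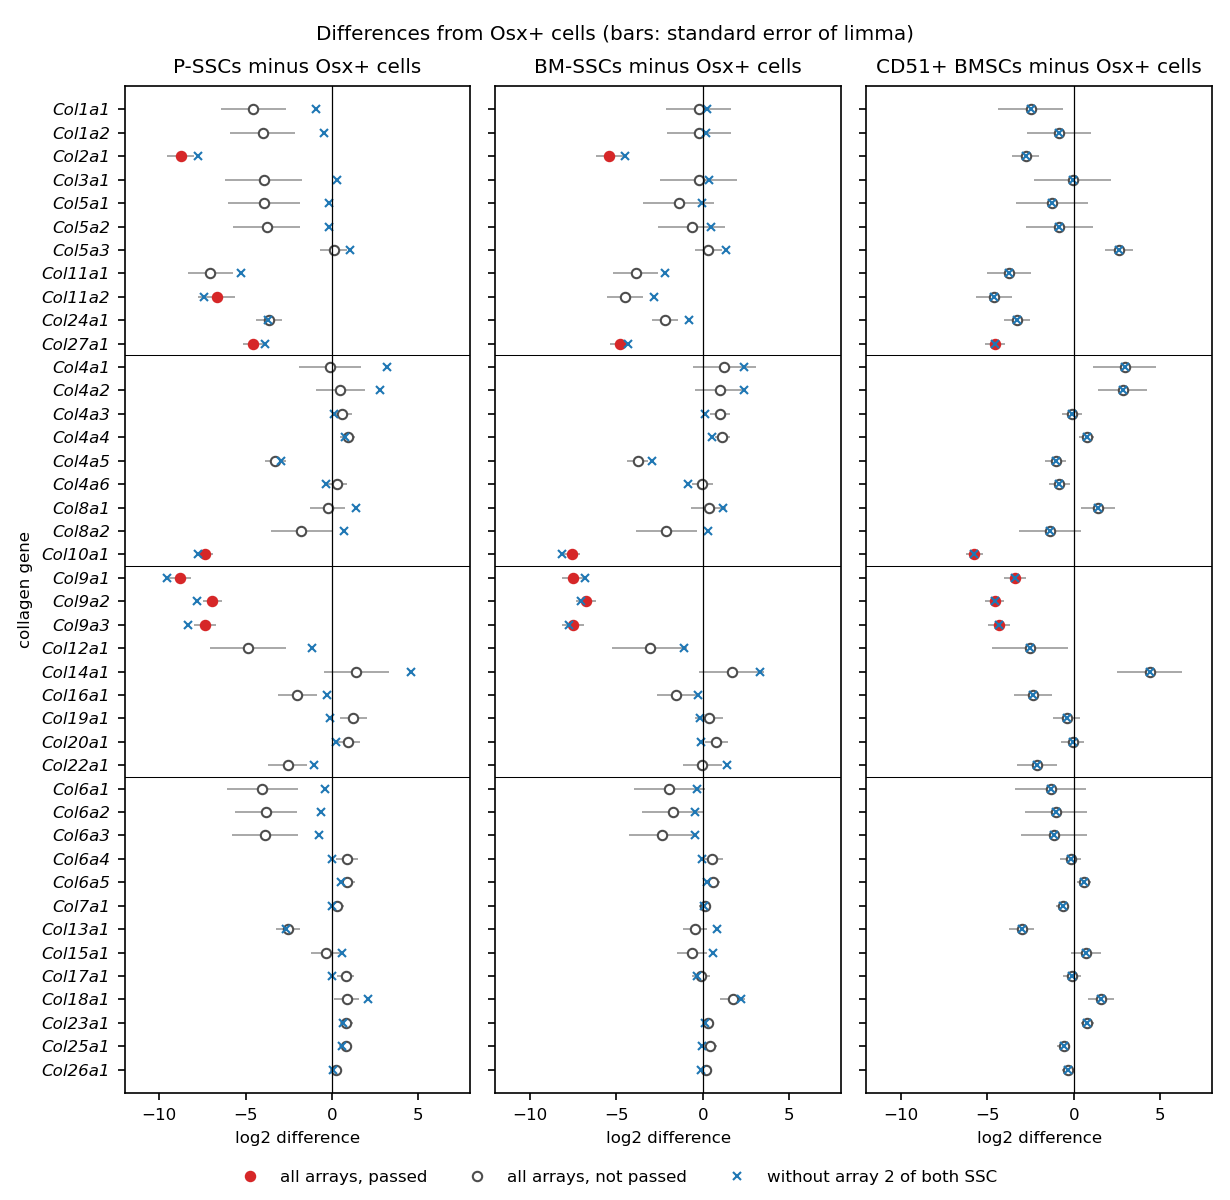
Log2 difference from Osx+ cells (horizontal axes) of the 42 collagens (rows, separated by class) in P-SSCs, BM-SSCs and CD51+ BMSCs, with standard errors from limma. Filled circles passed with all arrays, open circles did not, and crosses give the difference without array 2 of both SSC populations; Col10a1, Col9a1, Col9a2 and Col9a3 lie left of 0 in all 3 panels.

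Some chains of basement membranes and of the tissue around them had the opposite order, with higher signal in CD51+ BMSCs and on array 1 of the SSC populations than in Osx+ cells. Those described here were Col4a1, Col4a2, Col5a3, Col14a1, Col15a1 and Col18a1, grouped after their values were seen. Col8a1 had the same order, with 8.80 and 5.55 in P-SSCs and 8.58 and 6.90 in the BM-SSCs. It read 8.54 and 9.09 in CD51+ BMSCs and 7.27 and 7.55 in Osx+ cells. The dim Col4a4 and Col6a5 had this order too. With all arrays 0 collagens passed in this direction by the probe set used. The network-forming class as a whole did not share the order. In CD51+ BMSCs 4 of 9 of its chains were higher than in Osx+ cells (median difference -0.086). Col4a1 read 10.70 and 4.12 in P-SSCs, 9.91 and 7.63 in the BM-SSCs, 9.21 in Nes+ BMSCs, 10.23 and 10.71 in CD51+ BMSCs, 7.74 and 7.31 in Osx+ cells, against 3.1 and 2.69 in CD45+ cells. Col4a2 read 9.71 and 5.09 in P-SSCs, 9.29 and 6.49 in the BM-SSCs, 8.23 in Nes+ BMSCs, 9.54 and 9.97 in CD51+ BMSCs, 7.05 and 6.78 in Osx+ cells, against 3.23 and 3.12 in CD45+ cells. Col4a1 and Col4a2, the chains of the common type IV network, are neighbours in the genome and followed each other across the populations. Col4a5, another type IV chain, ran the other way. Col4a5 read 4.71 and 4.05 in P-SSCs, 4.73 and 3.06 in the BM-SSCs, 5.59 in Nes+ BMSCs, 6.36 and 6.87 in CD51+ BMSCs, 7.23 and 8.08 in Osx+ cells, against 2.04 and 2.63 in CD45+ cells. It rose in Osx+ cells against CD45+ cells by 5.32 (SE 0.61, adjusted p = 0.00189). The other probe set of Col4a5 differed from CD45+ cells by 1.01 in Osx+ cells and 0.56 in CD51+ BMSCs and passed in neither. Col14a1, a FACIT of tendon and skin, read 10.55 and 4.27 in P-SSCs, 9.33 and 5.98 in the BM-SSCs, 9.11 in Nes+ BMSCs, 10.37 and 10.40 in CD51+ BMSCs, 5.13 and 6.85 in Osx+ cells, against 2.53 and 2.94 in CD45+ cells. It had the largest positive difference of CD51+ BMSCs from Osx+ cells, 4.39 (SE 1.90, adjusted p = 0.561), although it did not pass. Other probe sets of Col14a1 differed by 4.62, which did not pass, and by 2.38, which passed. Col18a1, the source of endostatin, read 7.82 and 5.31 in P-SSCs, 7.92 and 6.95 in the BM-SSCs, 7.57 in Nes+ BMSCs, 7.27 and 7.35 in CD51+ BMSCs, 5.58 and 5.85 in Osx+ cells, against 4.87 and 4.86 in CD45+ cells. The related Col15a1 read 7.54 and 5.64 in P-SSCs, 7.56 and 5.06 in the BM-SSCs, 6.83 in Nes+ BMSCs, 7.31 and 7.97 in CD51+ BMSCs, 6.79 and 7.10 in Osx+ cells, against 4.52 and 4.45 in CD45+ cells. Col5a3 read 7.40 and 5.51 in P-SSCs, 7.67 and 5.66 in the BM-SSCs, 6.55 in Nes+ BMSCs, 8.65 and 9.27 in CD51+ BMSCs, 6.33 and 6.36 in Osx+ cells, against 3.80 and 4.39 in CD45+ cells, and rose in CD51+ BMSCs against CD45+ cells by 4.87 (SE 0.79, adjusted p = 0.0148), but the other probe set of that gene differed by -0.18. Against CD45+ cells, Col4a2 (6.58), Col8a1 (4.36) and Col4a5 (4.28) also rose in CD51+ BMSCs.

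The fit without array 2 of both SSC populations uses the array 1 values that grouped these chains, so it cannot test this order. Beside 12% of all probe sets in P-SSCs, 7.15% in the BM-SSCs and 13.3% in the CD51+ BMSCs, 8, 7 and 8 collagens were then higher than in Osx+ cells. Col4a1 was higher by 3.18 in P-SSCs, 2.39 in the BM-SSCs and 2.95 in the CD51+ BMSCs. Col14a1 was higher by 4.56, 3.34 and 4.39 in the same populations, and Col4a2, Col5a3, Col15a1 and Col18a1 were higher in all of them as well. With all arrays the difference of Col4a1 in CD51+ BMSCs was 2.95 (SE 1.81, adjusted p = 0.988). Endothelial markers followed these chains only in part. Their median signal was 5.81 and 5.95 on BM-SSC arrays 1 and 2, where Col4a1 read 9.91 and 7.63. In the fit without array 2 of both SSC populations, 8 of 8 were higher than in Osx+ cells in P-SSCs (median difference 2.72), 7 of 8 in BM-SSCs (1.57) and 3 of 8 in CD51+ BMSCs (0.579), against 0, 0 and 1 with all arrays. Their log2 signals summed to 36.7 to 50.3 in P-SSCs, 42.6 to 44.5 in BM-SSCs, 37.4 in Nes+ BMSCs, 39.0 to 40.7 in CD51+ BMSCs, 29.9 to 32.4 in Osx+ cells and 34.2 to 35.5 in CD45+ cells. Pecam1, the gene of CD31, read 6.34 and 4.80 in P-SSCs, 5.09 and 5.97 in the BM-SSCs, 3.75 and 3.98 in CD51+ BMSCs and 3.23 and 3.39 in Osx+ cells, against 6.64 and 6.75 in CD45+ cells. The part of endothelial RNA in the collagen differences was not tested. In the same fit 14, 12 and 23 collagens were lower than in Osx+ cells in P-SSCs, BM-SSCs and CD51+ BMSCs, where 14%, 7.46% and 11.4% of all probe sets were.

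Between P-SSCs and BM-SSCs, 0 collagens passed in limma, as did 0 of all probe sets (0%), and 3 collagens (Col2a1, Col11a1 and Col13a1) and 931 probe sets (2.07%) lay under the threshold before adjustment. Col2a1 differed by -3.35 (SE 0.78, adjusted p = 0.98) in P-SSCs relative to BM-SSCs. Without array 2 of both, 7 collagens were lower in P-SSCs, where 1.6% of all probe sets were, and 0 were higher (0.464%). The differences were, for Col13a1, -3.46 (adjusted p = 0.00117), Col11a2 -4.60 (adjusted p = 0.0093), Col2a1 -3.22 (adjusted p = 0.00501), Col11a1 -3.05 (adjusted p = 0.008), Col24a1 -2.91 (adjusted p = 0.00144), Col9a1 -2.71 (adjusted p = 0.0221) and Col22a1 -2.45 (adjusted p = 0.0297). Leaving out P-SSC array 1 alone, which keeps the dim array, gave 15, beside 15.7% of all probe sets. Between BM-SSCs and Nes+ BMSCs 0 collagens and 0% of all probe sets passed in limma, and 1 collagen and 376 probe sets (0.835%) lay under the threshold before adjustment. With BM-SSC array 2 and P-SSC array 2 left out, 9 collagens were higher and 3 lower in BM-SSCs, beside 15.8% and 12.1% of all probe sets.

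Against CD51+ BMSCs, 2 collagens were lower in P-SSCs (0.591% of all probe sets were) and 1 in BM-SSCs (0.591%), and 0 were higher (0.00444% and 0.0266%). In P-SSCs these were Col2a1, at -5.98 (SE 0.78, adjusted p = 0.0276), and Col9a1, at -5.41 (SE 0.64, adjusted p = 0.0202), and in BM-SSCs Col9a1, at -4.13 (SE 0.64, adjusted p = 0.0443). The other probe set of Col9a1 differed by -0.62 in P-SSCs and -0.73 in the BM-SSCs and did not pass. All 3 calls were lost when any CD45+, CD51+ or Osx+ array was left out, each of which left 0 collagens in these comparisons, and without P-SSC array 1 there were 27 in P-SSCs, beside 55.2% of all probe sets, and 4 in BM-SSCs (1.88%). Without array 2 of P-SSCs and of BM-SSCs, 9 collagens were higher and 9 lower in P-SSCs, beside 13.7% and 15.9% of all probe sets, and 14 collagens were higher and 7 lower in BM-SSCs, beside 5.61% and 8.6% of all probe sets, Col1a1 among the higher at 2.73 (adjusted p = 0.000323) and Col13a1 at 3.82 (adjusted p = 8.4e-05). Markers of other cells differed in the same comparison. The 8 skeletal muscle markers summed to 57.8 to 65.0 in CD51+ BMSCs and to 30.8 to 41.0 on every other array, and 7 of 8 rose against CD45+ cells. The 8 pan-blood markers summed to 79.8 to 81.2 in CD51+ BMSCs, 41.1 to 52.0 in P-SSCs, 48.5 to 60.2 in BM-SSCs and 95.7 to 96.4 in CD45+ cells. Their part in the collagen differences was not tested.

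**Figure D5:**
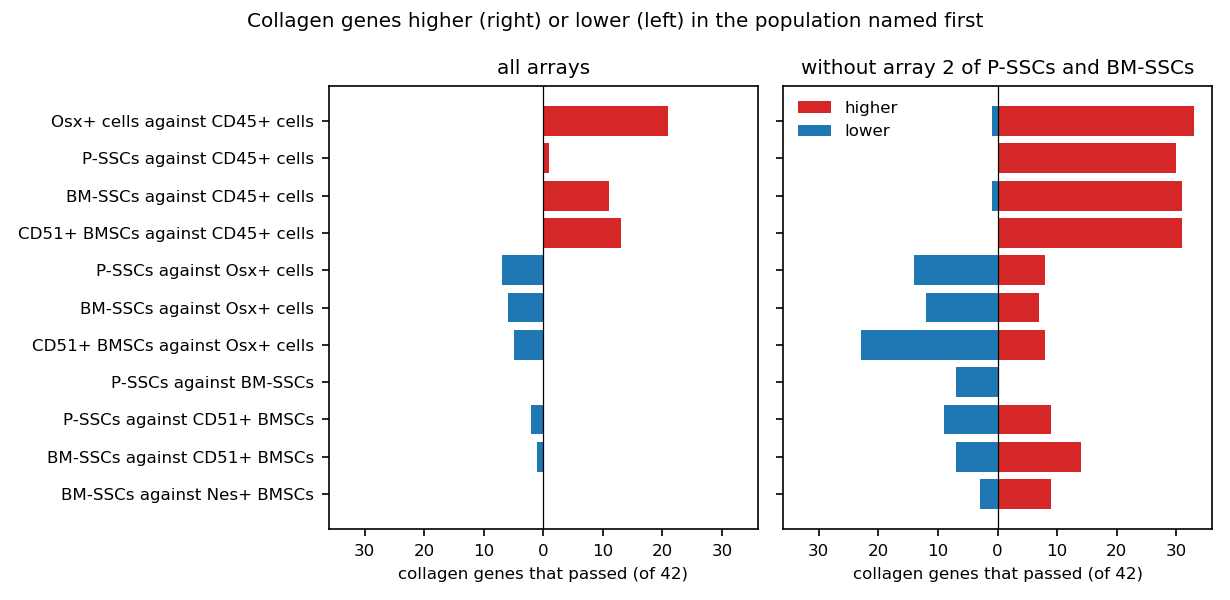
Number of the 42 collagen genes that passed in each of 11 comparisons (rows), higher (right) or lower (left) in the population named first, with all arrays (left panel) and without array 2 of P-SSCs and BM-SSCs (right panel). With all arrays the counts are 21 for Osx+ cells against CD45+ cells and 0 for P-SSCs against BM-SSCs.

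Other collagens varied little. A spread of under 3 log2 units over all arrays was seen in 11 genes by the probe set used. Col25a1 was among them, but its other probe set rose in Osx+ cells against CD45+ cells by 4.14. They included Col4a3, Col4a4 and Col4a6, chains of specialised basement membranes, the epithelial anchoring collagens Col7a1 and Col17a1, and Col6a4 and Col6a5. P-SSCs had the highest mean in 8 genes, none of which was clear of the next population, and all 8 read higher on P-SSC array 2 than on array 1. The means of the 42 genes over all arrays lay between percentiles 19.2 and 99.8 of the means of all tested probe sets, with a median percentile of 84.8. Of the 67 differences that passed, 40 concerned genes with other probe sets, whose 52 differences had the same sign in 50 and the same call in 28.

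Many enzymes that modify and fold collagen chains rose in Osx+ cells. Of 19 measured genes, 10 rose and 1 fell against CD45+ cells in Osx+ cells, 4 rose and 1 fell in P-SSCs, 6 rose and 1 fell in the BM-SSCs and 4 rose in the CD51+ BMSCs. In the same order 3.65%, 2.48%, 2.18% and 2.95% of all probe sets rose and 5.62%, 7.29%, 6.26% and 2.9% fell. Leaving out array 2 of P-SSCs and of BM-SSCs, 18 genes rose in Osx+ cells and 15 in each of the other three, 1 fell in each of the 4, and 14, 13 and 16 were lower than in Osx+ cells in P-SSCs, BM-SSCs and CD51+ BMSCs. In that fit 18%, 22.6%, 15.3% and 14.7% of all probe sets rose against CD45+ cells in Osx+ cells, P-SSCs, BM-SSCs and CD51+ BMSCs. The shares that fell were 23.4%, 26%, 22% and 21.7%. The shares lower than in Osx+ cells were 14%, 7.46% and 11.4% in P-SSCs, BM-SSCs and CD51+ BMSCs. The median difference of the list in Osx+ cells against CD45+ cells was 4.18. Lysyl hydroxylase Plod2 was higher in Osx+ cells by 8.16 (SE 1.32, adjusted p = 0.00831), prolyl 4-hydroxylase P4ha2 by 8.07 (SE 1.34, adjusted p = 0.00931) and the collagen chaperone Serpinh1 (HSP47) by 7.82 (SE 1.55, adjusted p = 0.0196). Tmem38b, an ion channel of the endoplasmic reticulum, was the gene lower in Osx+ cells, P-SSCs and BM-SSCs, with a difference of -2.30 (SE 0.34, adjusted p = 0.00559) in Osx+ cells. P3h2 read 6.62 and 5.67 in P-SSCs, 6.03 and 5.83 in the BM-SSCs, 5.70 in Nes+ BMSCs, 6.12 and 6.30 in CD51+ BMSCs, 10.17 and 10.46 in Osx+ cells, against 3.60 and 3.54 in CD45+ cells. This prolyl 3-hydroxylase was lower than in Osx+ cells, with -4.17 (SE 0.38, adjusted p = 0.00534) in P-SSCs, -4.38 (SE 0.38, adjusted p = 0.00438) in the BM-SSCs and -4.11 (SE 0.38, adjusted p = 0.00318) in the CD51+ BMSCs. The glycosyltransferase Colgalt2 was lower in P-SSCs (-2.66) and BM-SSCs (-3.21).

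Of 10 measured genes for the trimming and cross-linking of fibrils, 7 rose against CD45+ cells in Osx+ cells, 2 in P-SSCs, 2 in the BM-SSCs and 7 in the CD51+ BMSCs. Of all probe sets 3.65%, 2.48%, 2.18% and 2.95% rose. With array 2 of both SSC populations left out, those shares were 18%, 22.6%, 15.3% and 14.7%. Without array 2 of both SSC populations 8 rose in Osx+ cells, 8 in P-SSCs, 8 in the BM-SSCs and 9 in the CD51+ BMSCs. Pcolce2, an enhancer of procollagen trimming, rose by 9.84 (SE 1.56, adjusted p = 0.00766) in Osx+ cells and 9.65 (SE 1.56, adjusted p = 0.0147) in CD51+ BMSCs, and the procollagen C-proteinase Bmp1 rose in all 4 populations, by 4.02 in Osx+ cells, 3.0 in P-SSCs, 3.53 in the BM-SSCs and 4.34 in the CD51+ BMSCs. Adamts3, a procollagen N-proteinase, and the lysyl oxidase Loxl4 were the 2 genes lower than in Osx+ cells in all 3 other populations with all arrays. Loxl4 read 5.62 and 5.53 in P-SSCs, 5.82 and 6.06 in the BM-SSCs, 5.25 in Nes+ BMSCs, 5.45 and 5.95 in CD51+ BMSCs, 10.20 and 10.52 in Osx+ cells, against 3.89 and 3.61 in CD45+ cells. Its differences from Osx+ cells were -4.78 (SE 0.33, adjusted p = 0.0019) in P-SSCs, -4.42 (SE 0.33, adjusted p = 0.00255) in the BM-SSCs and -4.66 (SE 0.33, adjusted p = 0.00189) in the CD51+ BMSCs. Loxl1, a lysyl oxidase of elastic tissue, read 10.03 and 10.19 in CD51+ BMSCs and 7.66 and 7.81 in Osx+ cells.

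Of 9 measured collagen receptors, 3 passed against CD45+ cells in Osx+ cells and 2 in each of P-SSCs, BM-SSCs and CD51+ BMSCs, and 6 in each of the 4 without array 2 of both SSC populations. Of all probe sets 9.27%, 9.77%, 8.44% and 5.85% passed in these comparisons, and 41.4%, 48.6%, 37.4% and 36.4% in that fit. Ddr2, a receptor tyrosine kinase for fibrillar collagen, rose against CD45+ cells in Osx+ cells (3.32), P-SSCs (3.07), BM-SSCs (3.45) and CD51+ BMSCs (4.18). The endocytic receptor Mrc2 rose in Osx+ cells by 5.68 (SE 1.34, adjusted p = 0.038). Lair1, an inhibitory receptor of leukocytes, was lower in all 4, with -5.28 (SE 0.59, adjusted p = 0.00157) in Osx+ cells. Of all probe sets 0.808%, 0.615% and 2.22% passed against Osx+ cells in P-SSCs, BM-SSCs and CD51+ BMSCs. Without array 2 of both SSC populations these shares were 26.1%, 14.6% and 24.7%. Against Osx+ cells, 0 receptors passed in limma in P-SSCs, BM-SSCs or CD51+ BMSCs with all arrays, and 4 of 9 in each without array 2 of both SSC populations.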

How the data were processed

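RNA of sorted mouse cells was hybridised to Affymetrix mouse arrays. Per the study's methods, scanned arrays were processed by RMA in Partek GS, and the table that the authors deposited holds the resulting log2 signals, used here as given. The submitters' notes also name limma, and versions are not given in the sources used here. Scanner files were not analysed here. After leaving out 64 control probe sets, 45037 were tested with limma 3.58.1 in R 4.3.3, in one model with a mean per population over all 11 arrays (5 residual and 2.65 prior degrees of freedom), with two-sided tests. The spread of a probe set is estimated once for all populations, so a dim array widens it in every comparison. Array medians lay between 4.43 and 4.94, and the number of arrays limits the precision. Populations were taken from the sample titles. The source field of the Nes+ BMSC and Osx+ cell arrays names periosteal tissue.

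Gene names came from the platform annotation, in which 34958 probe sets carry 1 symbol and 932 several. Collagen classes and the lists of collagen enzymes, receptors and cell type markers came from general knowledge. The members and lists were chosen with earlier results of these data known, and the name cartilage collagens was given to a group after its values were seen. Values on every array are given for the chains of types I, II, III, V, VI, IX to XII, XIV, XV and XVIII, for Col4a1 and Col4a2 of type IV, and for up to 5 collagens per direction and comparison with the largest difference among those that passed. Of the enzymes and receptors, up to 3 per direction were eligible to be named. Acan, Matn1, Loxl1, Pecam1, Tek, Eng, Col4a5, Col8a1, Col23a1, Col25a1 and a few others were named after their values were seen. Runx2, Spp1 and Bglap of the bone markers were not analysed here. Alternatives were quantile normalization of the deposited values, centring, leaving out dim probe sets, fits of the compared populations only, the array number as a block, a mean over probe sets, and leaving out arrays. The model was tested on simulated data. Promoters came from RefSeq, and the build of the array annotation is not given in the sources used here.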

Additional observations from a re-analysis of the deposited data

How the results depend on the processing

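The counts of collagens that passed depended on the arrays in the fit more than on scaling. None of the 67 single differences that passed changed sign in any alternative fit. Taken over all these fits they gave 1205 differences, of which 860 passed and 345 did not. Without array 2 of P-SSCs and of BM-SSCs together, which keeps all 67 calls, 34 (Osx+ cells), 30 (P-SSCs), 32 (BM-SSCs) and 31 (CD51+ BMSCs) passed against CD45+ cells. In that setting 22 (P-SSCs), 19 (BM-SSCs) and 31 (CD51+ BMSCs) passed against Osx+ cells, 7 for P-SSCs against BM-SSCs, 18 for P-SSCs and 21 for BM-SSCs against CD51+ BMSCs, and 12 for BM-SSCs against Nes+ BMSCs. With each array left out in turn, the counts ranged over 9 to 27 (Osx+ cells), 0 to 21 (P-SSCs), 0 to 25 (BM-SSCs) and 0 to 25 (CD51+ BMSCs) against CD45+ cells. The ranges were 1 to 26 (P-SSCs), 1 to 10 (BM-SSCs) and 0 to 8 (CD51+ BMSCs) against Osx+ cells, 0 to 15 for P-SSCs against BM-SSCs, 0 to 27 for P-SSCs and 0 to 4 for BM-SSCs against CD51+ BMSCs, and 0 throughout for BM-SSCs against Nes+ BMSCs, which had no value without the Nes+ array. Fits of the compared populations alone gave 34, 0, 5 and 32 for Osx+ cells, P-SSCs, BM-SSCs and CD51+ BMSCs against CD45+ cells, 0, 0 and 30 for P-SSCs, BM-SSCs and CD51+ BMSCs against Osx+ cells, and 0 for P-SSCs and 0 for BM-SSCs against CD51+ BMSCs. Quantile normalization of the deposited values gave 3 for P-SSCs and 8 for CD51+ BMSCs against CD45+ cells, and 1 for P-SSCs and 0 for BM-SSCs against CD51+ BMSCs. Centring each array on its median gave 0 for P-SSCs and 6 for BM-SSCs against CD45+ cells and 2 for BM-SSCs against CD51+ BMSCs. Leaving out the dimmer probe sets gave 0 for BM-SSCs against CD51+ BMSCs, and a mean over all probe sets of a gene gave 5 for P-SSCs and 18 for BM-SSCs against CD45+ cells. With the array number as a replicate block, the count was 3 for P-SSCs against CD45+ cells and 0 for BM-SSCs against CD51+ BMSCs, and it stayed within 1.5 times elsewhere. The labels do not say that the numbers pair arrays. The correlation of the array 1 minus array 2 differences was 0.784 between P-SSCs and BM-SSCs, whose array 2 both differ from their partners, and -0.267 to 0.0115 between the other pairs, and with the block 0 collagens passed between P-SSCs and BM-SSCs. Apart from the fits with fewer arrays or probe sets, the cause of these changes was not tested.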
